A study of Mus musculus with 90 samples.

Results

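The clustered protocadherins are cell-adhesion genes that lie side by side in the alpha, beta and gamma clusters. They were taken here as all genes on chromosome 18 of the GENCODE vM1 annotation of mm9 whose names begin with Pcdha, Pcdhb or Pcdhg. This gave 25 of the 37310 annotated genes, of which 22 are beta genes, 2 are alpha genes and 1 is a gamma gene. All lie on the plus strand. The annotation joins most alpha exons into a single gene with 10 transcripts, Pcdha11 at chr18:37089939-37347311, beside the short Pcdha3, and joins the whole gamma cluster into Pcdhgc5 at chr18:37833989-38001527, also with 10 transcripts. The beta genes run from Pcdhb1 at chr18:37424652-37427108 to Pcdhb22 at chr18:37678007-37681073, and Pcdhb20 among them is annotated as a pseudogene. The other C-type genes, which are the alpha and gamma genes nearest to the shared exons, are therefore not listed under their own names. The 25 genes have 47 distinct transcript starts, with 11 in the alpha, 26 in the beta and 10 in the gamma cluster.

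Neurons use these genes to tell their own processes from those of other neurons. Each alpha or gamma promoter drives its own variable exon, which is spliced to constant exons at the end of the cluster, whereas beta genes have no shared constant exon. Which promoters a neuron uses is known to depend on DNA methylation by Dnmt3b, on CTCF and cohesin, and on repressors that include Smchd1 and Setdb1, an enzyme that deposits H3K9me3. H3K9me3 is a histone mark of silent chromatin. Trim28 is the corepressor that brings Setdb1 to repeats through zinc finger proteins, and Uhrf1 is the partner of the methyltransferase Dnmt1, which binds hemimethylated DNA and H3K9me3.

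H3K9me3 and Trim28 were measured by ChIP-seq and Uhrf1 by ChIPmentation against a FLAG tag on the endogenous protein, in mouse embryonic stem cells of 3 lines with 2 replicates each. WT cells were V6.5. TKO_L cells were J1 cells that lack Dnmt3a and Dnmt3b and carry a shRNA against Dnmt1 which Cre can excise, and DKO_0 cells were derived from them by removing that shRNA, so both J1 lines lack Dnmt3a and Dnmt3b. For Uhrf1 each line additionally carried the tag, in isolated clones. The study's names for the DKO_0 replicates put them at early passages, earlier for Uhrf1 than for H3K9me3 and Trim28. TKO_L is a clonal line, strain differs between WT and the others together with genotype, and the cells were grown on feeder cells, whose share in the material is not known. Peak lists give no expression by which the cell type could be checked. What sets the replicates apart is not stated in the labels, so p-values measure the spread between these samples, which may be technical.

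The deposited peak lists held between 11440 peaks (Uhrf1, DKO_0 replicate 1) and 63579 peaks (H3K9me3, DKO_0 replicate 1) per replicate. Peaks covered 0.302% to 1.09% of the genome for H3K9me3, 0.141% to 0.341% for Trim28 and 0.0888% to 0.536% for Uhrf1. The lists hold no read counts, so the depth behind them is unknown and enters only through the number of peaks. TKO_L replicate 1 stood apart among the Trim28 lists, with 31921 peaks against 16960 in replicate 2, and its peak names carry another prefix than those of all other lists.

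No protocadherin gene had a peak at its start. Within 1 kb of the 25 gene starts, none of the 24 lists, pooled lists included, held a peak of H3K9me3, Trim28 or Uhrf1. The lists of pooled replicates exist for TKO_L and DKO_0 only.

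For H3K9me3, 0 of 25 starts stood against 1.57% and 1.14% of all gene starts in WT replicates 1 and 2. In TKO_L the background was 2.58% and 1.32%, and 4.85% in the pooled list. In DKO_0 it was 3.95% and 1.67%, and 5.09% in the pooled list. The protocadherin share was thus 0 in each line, and the share of all genes was highest in the pooled lists.

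For Trim28, the share of all gene starts was 2.17% and 1.86% in WT. It was 4.51% and 0.852% in TKO_L, with 5.64% in the pooled list, and 1.02% and 0.847% in DKO_0, with 2.67% in the pooled list. For Uhrf1, it was 1.52% and 2.89% in WT, 1.18% and 2.83% in TKO_L, with 3.13% in the pooled list, and 3.66% and 1.54% in DKO_0, with 7.29% in the pooled list. In all of these lists, the protocadherin count stayed at 0.

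At these background shares, 25 genes would hold 0.212 to 1.13 genes with a peak in a replicate list and at most 1.82 in a pooled list. A count of 0 is therefore near the background, and an absence particular to the protocadherins cannot be read from it. The protocadherin share minus the share of all genes was -2.04 percentage points on average for H3K9me3, -1.88 for Trim28 and -2.27 for Uhrf1, lower in 6 of 6 replicate lists each. The exact two-sided sign-flip test over the 6 lists gave p = 0.03125 for each mark, the smallest that 6 lists allow. With 0 of 25 in each list the sign of each difference is fixed, so this p restates the count of 0 and does not compare these genes with other sets of 25. With all transcript starts, the Trim28 difference was -1.59 (exact sign-flip test, p = 0.156).

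**Figure D1:**
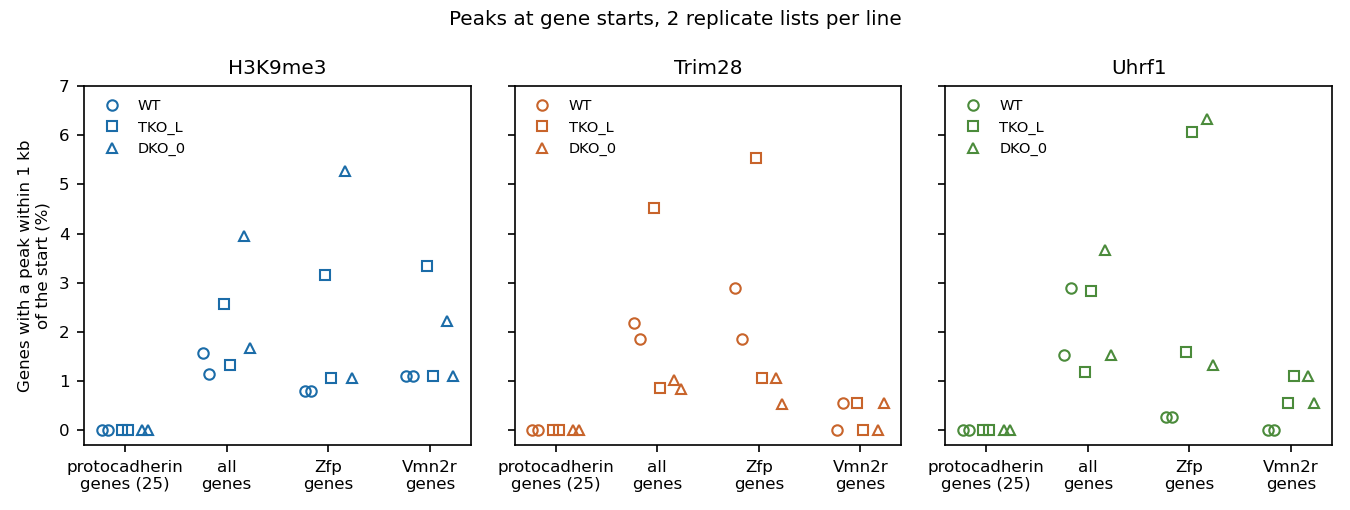
Share of genes with a peak within 1 kb of the start (vertical axis, percent) for the 25 protocadherin genes, all genes, Zfp genes and Vmn2r genes, with a panel for each mark. Each point is a replicate list, with circles for WT, squares for TKO_L and triangles for DKO_0; all protocadherin points lie at 0, and those of all genes in the 3 panels lie between 0.847% and 4.51%.

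Because all lists were at 0, DKO_0 minus TKO_L and WT minus TKO_L were 0 percentage points at the starts for each mark (exact permutation tests, p = 1). With 2 lists against 2, such a test cannot give a p below 1 in 3. Differences between the alpha, beta and gamma starts were 0 as well (9 exact sign-flip tests, adjusted p = 1). The 47 transcript starts also hold those inner promoters of the joined alpha and gamma genes that the annotation lists. Promoters without an annotated transcript were not examined. Of the 47 starts, 2 had a peak in any list and none had it in both replicates of a line. Both belong to the gamma cluster. The Pcdhgc5 transcript start at chr18:37885360 had a Trim28 peak in WT replicate 2 with a fold enrichment of 2.74 over the local background. The Pcdhgc5 transcript start at chr18:37925234 had a Uhrf1 peak in DKO_0 replicate 1 and in the pooled DKO_0 list, with fold enrichments of 3.34 and 3.11. Counted by gene over all transcript starts, this was 4% of the members in each of these lists. Among all genes the share was 2.33% in that Trim28 list and 4.24% and 8.45% in those Uhrf1 lists. A count of 1 gene is therefore near the background.

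Exons were free of H3K9me3 peaks, and a few held a Trim28 or Uhrf1 peak. The exons of the 25 genes, UTRs included, span 136097 bp. H3K9me3 peaks covered 0 bp of them in each of the 6 replicate lists, and 0.0769% to 0.465% of the exon bases of all genes. At shares this low few bases would be covered in exons of this length, so 0 bp is near the background. Trim28 peaks touched an exon in both WT lists only, with 228 bp in Pcdhb6 in replicate 1 and 196 bp in Pcdhgc5 in replicate 2, and Uhrf1 peaks did so in DKO_0 replicate 1, with 114 bp in Pcdhgc5. For Trim28 this was 0.168% and 0.144% of the exon bases in WT, above the 0.0971% and 0.113% of all genes, and for Uhrf1 it was 0.0838% against 0.149%. These amounts rest on few peaks, so no difference from all genes can be read from them. The Pcdhb6 peak, at chr18:37495984-37496211 with a fold enrichment of 3.99, was the only peak in a beta gene in the 18 replicate lists. In the pooled lists, Uhrf1 in DKO_0 covered 500 bp of exons, in Pcdhb14 and Pcdhgc5, which is 0.367% against 0.335% for all genes. The other 5 covered none. For all genes these covered 1.04% (TKO_L) and 1.31% (DKO_0) for H3K9me3, 0.446% and 0.137% for Trim28, and 0.148% for Uhrf1 in TKO_L. The pooled lists have no replicates, so these values carry no test.

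Most gene bodies were without peaks as well. In both replicate lists of a line, a peak lay in the body of Pcdha11 for H3K9me3 in WT, TKO_L and DKO_0, for Trim28 in the same 3 lines, and for Uhrf1 in WT. Pcdhgc5 met this for H3K9me3 in DKO_0 and for Uhrf1 in TKO_L and DKO_0. No beta gene did. The counts were therefore 1 of 25 bodies, or 2 of 25 for H3K9me3 in DKO_0. Among all genes, the same rule called 5.92% (WT), 7.28% (TKO_L) and 8.33% (DKO_0) for H3K9me3, 5.36%, 4.89% and 4.28% for Trim28, and 9.94%, 4.69% and 3.78% for Uhrf1, so the members' shares of 4% or 8% were near the background. Both genes are long, with 257373 bp for Pcdha11 and 167539 bp for Pcdhgc5, whereas the beta genes measure 2457 to 7131 bp, and 18 of the 22 have a single exon.

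Distances from the starts to the nearest peak varied widely between lists and along the clusters. Pcdhb1, the first beta gene, had its nearest H3K9me3 peak at a median of 64806 bp over the 6 replicate lists and its nearest Trim28 peak at 100467 bp. For Pcdhb22, the last beta gene, the medians were 41456 bp for H3K9me3, 58910 bp for Trim28 and 46232 bp for Uhrf1. Pcdhb8, in the middle of the cluster, had the shortest medians for all 3 marks, with 10223 bp for H3K9me3, 10410 bp for Trim28 and 14643 bp for Uhrf1. Its H3K9me3 distance varied only between 10050 and 10703 bp among the replicate lists. From the outermost start of Pcdha11 the medians were 52682 bp, 46399 bp and 51846 bp for H3K9me3, Trim28 and Uhrf1, and from Pcdha3 they were 36820 bp, 36847 bp and 35984 bp. From the outermost start of Pcdhgc5 the medians were 41563 bp, 40609 bp and 109617 bp, and the Trim28 peak closest to that start lay at 8513 bp. Pcdhb15, within the beta cluster, had the longest Trim28 median, 102444 bp. The closest peak to the outermost start of any member in a list, pooled ones included, was 6817 bp away for H3K9me3, 2302 bp for Trim28 and 2239 bp for Uhrf1. Inner transcript starts are not part of these distances.

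The peaks of the clusters instead gathered in a few places between the genes and in the long introns. Peaks of the 18 replicate lists were joined into a site where they lay within 1 kb of each other. Between the start of Pcdha11 and the end of Pcdhgc5, a stretch of 911589 bp, this gave 49 sites, and 22 of them appeared in a single list. A site was called recurrent where both replicates of a line held a peak for at least 1 mark. There were 11 recurrent sites, numbered along the chromosome, with 3 in the alpha, 3 in the beta and 1 in the gamma cluster and 4 between the beta and gamma clusters. They were chosen by their own peaks, so what follows describes them without a test.

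**Figure D2:**
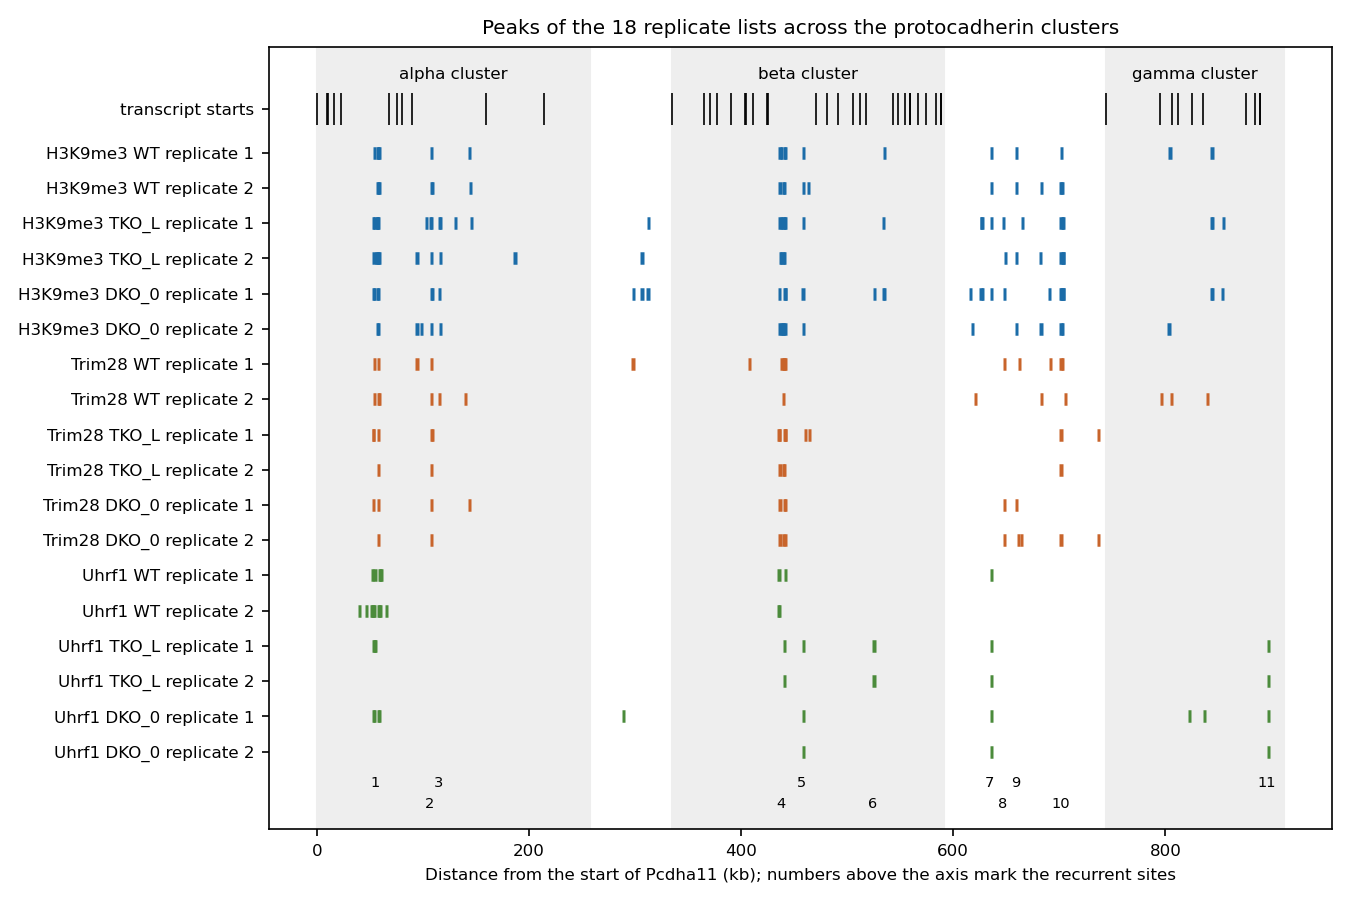
Peaks of the 18 replicate lists (rows) by distance from the start of Pcdha11 (horizontal axis, kb), with transcript starts as ticks at the top, the cluster spans shaded and the 11 recurrent sites numbered at the bottom. Bars are drawn at least 3 kb wide, and the columns of bars at sites 1 and 4 run through H3K9me3 and Trim28 in all lines while no bar lies at a start in both replicates of a line.

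Site 1 lies in an intron of Pcdha11, at chr18:37140085-37149274 in mm9 coordinates, 8260 bp from the nearest transcript start. It held a peak in 16 of the 18 replicate lists, namely in all H3K9me3 and Trim28 lists and in 4 of 6 Uhrf1 lists. H3K9me3 peaks covered 1236 and 983 bp of its 9190 bp in WT, 2037 and 1332 bp in TKO_L and 2712 and 1421 bp in DKO_0. TKO_L and DKO_0 overlapped, and both WT values lay below them, as did the number of H3K9me3 peaks over the genome, 29440 and 25953 in WT against 32702 to 63579. The highest fold enrichments ranged from 2.31 in TKO_L replicate 1 to 3.51 in TKO_L replicate 2, and the WT and DKO_0 values fell between these.

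Trim28 peaks at site 1 had highest fold enrichments of 4.21 and 4.79 in WT, 3.55 and 5.75 in TKO_L and 6.12 and 6.37 in DKO_0. Both DKO_0 values lay above the 4 others, and with 2 lists a line no test can tell this from the spread at the 0.05 level. Uhrf1 peaks covered 1603 and 3225 bp in WT, 794 bp and nothing in TKO_L, and 589 bp and nothing in DKO_0. The WT lists were higher here, and they also held more peaks over the genome, 30134 and 49156 against 11440 to 17444.

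Site 4 lies between Pcdhb8 and Pcdhb9, at chr18:37523869-37530820, 8944 bp beyond the nearest start, which is that of Pcdhb8. It too held peaks in 16 replicate lists, all 12 of H3K9me3 and Trim28 and 4 of Uhrf1. H3K9me3 covered 1197 and 1105 bp in WT, 2514 and 1570 bp in TKO_L and 2591 and 2399 bp in DKO_0. Here too WT lay below the overlapping TKO_L and DKO_0 values. Trim28 covered 817 and 204 bp in WT, 1591 and 739 bp in TKO_L and 789 and 865 bp in DKO_0. Uhrf1 peaks lay there in both WT lists (335 and 1467 bp) and both TKO_L lists (320 and 200 bp), and in neither DKO_0 list.

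These 2 sites were the only ones at which both replicates of a line held a peak for all 3 marks. By fold they did not stand out for H3K9me3 in the replicate lists. The highest H3K9me3 folds at site 4 were 2.33 to 2.77, at percentiles 7.66 to 23.7 of the peaks in their lists. Those at site 1 lay at percentiles 13.9 to 53.3. In the pooled lists their H3K9me3 ranks were much higher. H3K9me3 peaks then covered all 6952 bp of site 4 in both lines, with fold enrichments of 12.9 in TKO_L and 11.1 in DKO_0, above 99.5% and 99.4% of the peaks in those lists. At site 1 the H3K9me3 fold was 11.5 in TKO_L and 9.62 in DKO_0, and the Trim28 fold 8.50 and 15.7. Pooled Trim28 at site 4 reached 6.99 in TKO_L and 11.4 in DKO_0. The pooled lists have no replicates, so these pairs of values carry no test.

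Sites 2 and 3 lie in the same gene, further down its introns. Site 2, at chr18:37195557-37197386, had H3K9me3 and Trim28 peaks in all 12 replicate lists and no Uhrf1 peak in any replicate list. Its H3K9me3 folds lay between 2.72 and 3.88 and its Trim28 folds between 3.21 and 5.04. Site 3, at chr18:37203591-37205084, held H3K9me3 peaks in all 4 TKO_L and DKO_0 replicate lists and in neither WT list. These peaks were weak, with a highest -log10 q of 1.24 to 2.06, and the WT lists held fewer H3K9me3 peaks over the genome. The only Trim28 peak of a replicate list at site 3 lay in WT replicate 2, with a fold of 3.86.

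Sites 5 and 7 were short and showed another pattern. Site 5, at chr18:37546827-37547348 between Pcdhb8 and Pcdhb9, measured 522 bp, and site 7, at chr18:37724140-37724495 beyond the last beta gene, 356 bp. H3K9me3 peaks lay at site 5 in 5 of 6 replicate lists and at site 7 in 4, Uhrf1 peaks in 3 and 5 lists, and Trim28 peaks in none of the 6 lists. At site 5 the H3K9me3 folds were 4.02 and 3.74 in WT, 4.75 in TKO_L replicate 1, and 5.25 and 3.49 in DKO_0. The pooled lists gave 2.51 in TKO_L and 3.30 in DKO_0. At site 7 the fold was 5.75 in TKO_L replicate 1 and 2.42 in the pooled TKO_L list.

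For H3K9me3, fold enrichments at sites 1 and 4 were thus higher in the pooled lists than in either replicate, and those at sites 5 and 7 were lower than in each replicate list with a peak. The peak names of the pooled H3K9me3 and Trim28 lists carry an input label that those of the replicate lists lack. Its part in these opposite differences was not tested.

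**Figure D3:**
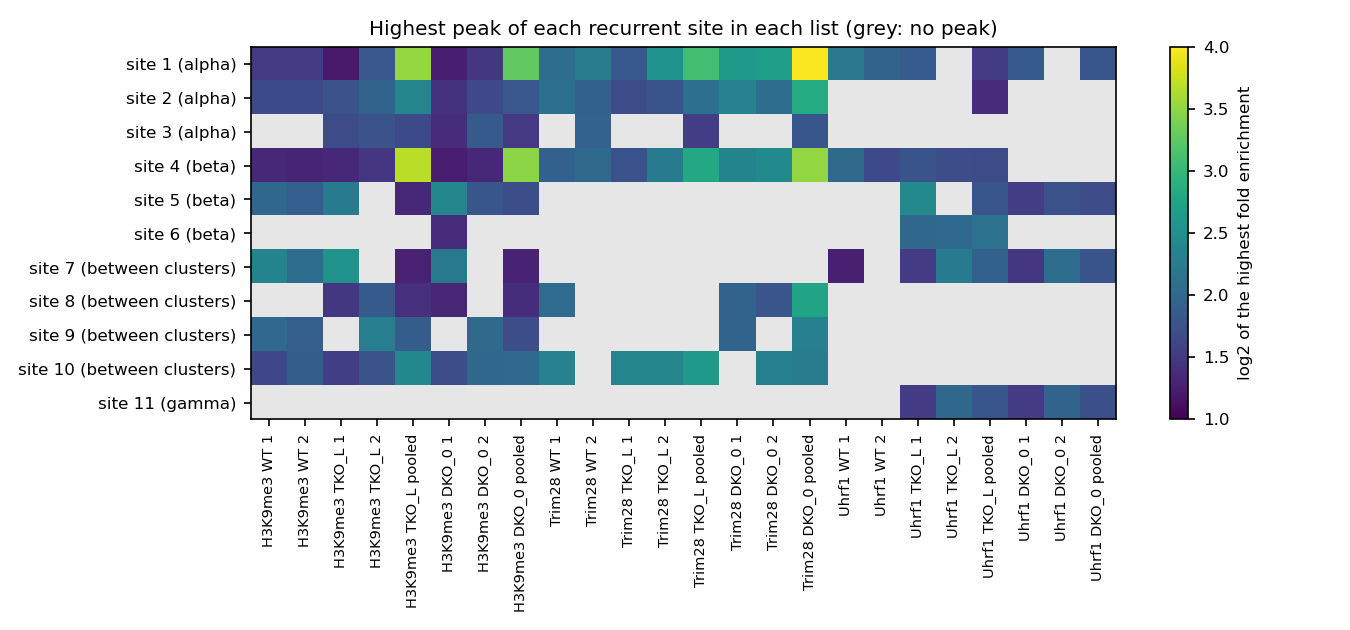
Highest fold enrichment over the local background of the peaks at each recurrent site (rows, with the cluster) in each list (columns; 1 and 2 are replicates), as log2 by colour, with grey for no peak. Sites 1 and 4 have H3K9me3 and Trim28 peaks in each column and their highest values in the pooled lists, up to 12.9-fold for H3K9me3 at site 4 and 15.7-fold for Trim28 at site 1.

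Sites 6 and 11 were marked by Uhrf1. Site 6, at chr18:37613752-37614299 between Pcdhb14 and Pcdhb15, had Uhrf1 peaks in both TKO_L lists, with folds of 4.02 and 4.07, and a single H3K9me3 peak. Site 11, at chr18:37985834-37985977 in an intron of Pcdhgc5, had Uhrf1 peaks in both TKO_L lists (2.90 and 4.05) and both DKO_0 lists (2.89 and 3.88), and in neither WT list. Neither H3K9me3 nor Trim28 peaks lay at site 11. The WT Uhrf1 lists held more peaks over the genome, and the cause of the difference at site 11 was not tested. The 4 sites between the beta and gamma clusters include site 10, at chr18:37789967-37792978, with H3K9me3 in all 6 and Trim28 in 4 of 6 replicate lists.

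Recurrent sites and gene starts differed in how often their sequence recurs in the genome. Words of 31 bases were counted on both strands of the mm9 assembly. Around the 25 gene starts, a median of 2.69% of words occurred more than once, with 0% at 10 genes, Pcdhb1 and Pcdhb22 among them, and at most 22.0%, at Pcdhb9. The median over the 765 other gene starts of the chromosome was 1.47%. At 9 of the 11 sites the share was 82.5% to 100%. It was 83.3% at site 1 and 98.5% at site 4, where the middle word had 753 and 866.5 copies in the genome. Only sites 6 and 11, marked by Uhrf1, were near unique, with 2.90% and 3.51%. Sites 1 and 4 were also related to each other, as 50.0% of the words of site 4 recurred in site 1, and 89.7% of the words of site 9 recurred in site 2.

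**Figure D4:**
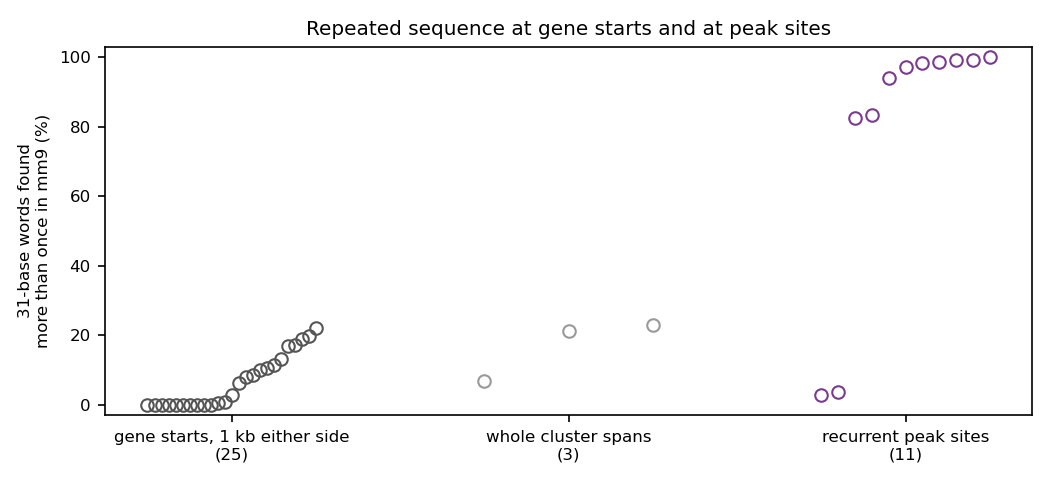
Share of 31-base words found more than once in the mm9 genome (vertical axis, percent) for the 25 gene starts with 1 kb either side, the 3 cluster spans and the 11 recurrent sites, each group in ascending order. Gene starts lie at or below 22.0%, whereas 9 sites lie at 82.5% or above and 2 at 3.51% or below.

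The same held for the peaks of each list. Over the 3 spans 18.3% of words were repeated, against 77.1% to 99.7% of words under H3K9me3 peaks, 70.1% to 100% under Trim28 peaks and 48.7% to 85.1% under Uhrf1 peaks of the replicate lists. Reads from repeated words can align to several places. How the authors' alignment placed such reads is not visible in the lists, and its part in these peaks was not tested. CpG content gave a median of 1.50 CpG per 100 bp around the protocadherin starts and 1.60 around all gene starts. Pcdhb9 had the lowest and Pcdhb1 the highest value of the members, at percentiles 14.0 and 62.8 of all gene starts. The alpha, beta and gamma spans held 1.25, 1.09 and 1.90 CpG per 100 bp. Sites 1 and 4 held 2.67 and 2.29, and site 10, between the clusters, 2.36, whereas the other 8 sites held 0.365 to 1.40.

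By bases, H3K9me3 and Trim28 covered the alpha and beta clusters more than the genome in most lists, largely through sites 1 and 4, and the gamma cluster mostly less. H3K9me3 peaks covered 1.27 to 2.45 times the genome's share in the alpha cluster and 1.36 to 2.31 times in the beta cluster, above the genome in 6 of 6 replicate lists each. In the gamma cluster the ratio ranged from 0 to 1.23 and was above 1 in 1 list. Trim28 covered 1.95 to 3.68 times the genome's share in the alpha cluster, again in 6 of 6 lists, and 0.543 to 2.40 times in the beta cluster. It covered no base of the gamma cluster in 5 of 6 lists. Uhrf1 lay above the genome in 4 of 6 lists in the alpha cluster, in 3 in the beta cluster and in 1 in the gamma cluster.

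A single site held most of the covered bases in each of these clusters. Site 1 took 56.0% to 77.6% of the bases covered by H3K9me3 in the alpha cluster and 64.7% to 85.2% of those covered by Trim28. Site 4 took 66.4% to 100% of the H3K9me3 bases and 78.2% to 100% of the Trim28 bases in the beta cluster. With the site left out of both peaks and span, a calculation added after seeing the data, the H3K9me3 ratio to the genome was 0.318 to 1.07 in the alpha cluster and at most 0.743 in the beta cluster, above 1 in 1 and 0 of 6 lists. The Trim28 ratio was then 0.368 to 1.35 in the alpha cluster, above 1 in 2 lists, and at most 0.377 in the beta cluster. For Uhrf1 it was above 1 in none of the 6 lists in the alpha cluster and in 1 in the beta cluster. The pooled Trim28 ratios stayed above 1 without the site. They were 1.06 (TKO_L) and 1.04 (DKO_0) in the alpha cluster and 1.14 and 1.31 in the beta cluster. Pooled Uhrf1 in DKO_0 was at 1.07 in the beta cluster, and the other pooled ratios were below 1. The genome's share kept its own largest sites. These ratios therefore show what the site contributed, and not whether the rest differs from the genome.

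**Figure D5:**
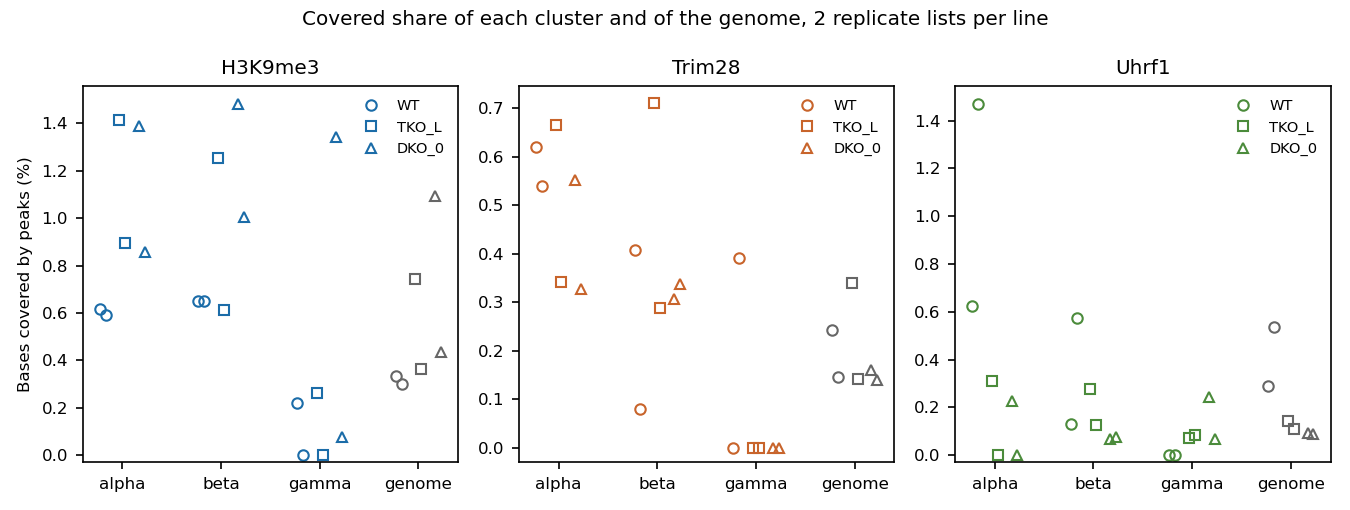
Share of bases covered by peaks (vertical axis, percent, scaled separately in each panel) in the alpha, beta and gamma cluster spans and in the genome (grey), with a panel for each mark. Each point is a replicate list, with circles for WT, squares for TKO_L and triangles for DKO_0; H3K9me3 lies above the genome in the alpha and beta clusters in 6 of 6 lists, from 1.27 to 2.45 times its share, with sites 1 and 4 included.

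Restoring Dnmt1 was compared by the covered share of the 3 clusters together in DKO_0 and TKO_L. The comparison holds for early passages of DKO_0 only, and the paper reports that methylation rose with later passages. For H3K9me3 the share was 1.41% and 0.721% in DKO_0, 1.07% and 0.568% in TKO_L, and 0.534% and 0.468% in WT. DKO_0 minus TKO_L was 0.248 percentage points (exact permutation test, p = 0.667), and the replicates of DKO_0 and of TKO_L differed by more than that. The difference was -0.0977 without DKO_0 replicate 1 and -0.00242 without TKO_L replicate 2, so its direction was not stable. Relative to the genome's share, the H3K9me3 ratio was 1.29 and 1.66 in DKO_0 and 1.44 and 1.56 in TKO_L, so the lists overlapped.

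For Trim28 the share was 0.325% and 0.251% in DKO_0 and 0.518% and 0.238% in TKO_L. The difference was -0.0904 percentage points (exact permutation test, p = 1), and 0.0499 without TKO_L replicate 1, the list that stood apart. The ratio to the genome's share was 2.02 and 1.78 in DKO_0 and 1.52 and 1.67 in TKO_L, where the lines did not overlap. The exact permutation test of the ratio gave the smallest p that 2 lists against 2 allow, 1 in 3.

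For Uhrf1 the share was 0.172% and 0.0448% in DKO_0 and 0.238% and 0.0684% in TKO_L, a difference of -0.0447 (exact permutation test, p = 0.667). In WT it was 0.284% and 0.771%. A difference in the covered share between DKO_0 and TKO_L was thus not detectable at the clusters for any of the 3 marks, and each was smaller than the gap between the TKO_L replicates. For the Trim28 ratio to the genome, a measure added after seeing the data, the difference was larger than the gap between the TKO_L replicates. With 2 lists against 2 it was not detectable either.

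The overlap of marks was set beside that over the genome, without a test. Of the Trim28 peaks between the start of Pcdha11 and the end of Pcdhgc5, 31 of 67 overlapped an H3K9me3 peak of the same line and replicate number. By list this was 26.7% to 83.3%, against 27.6% to 51.7% of Trim28 peaks over the genome, and the regional share was the higher in 3 of 6 lists. For Uhrf1 it was 13 of 45 peaks, 16.7% to 40.0% by list against 9.42% to 37.6% over the genome, higher in 6 of 6 lists, with 3 to 12 peaks a list. Several peaks can lie in 1 site, as did 7 of the 12 in WT replicate 2, at site 1. In TKO_L replicate 2 and DKO_0 replicate 2 the share rests on 1 overlapping peak.

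Other gene groups give the scale at starts. Among all genes, 1.14% to 3.95% of starts held H3K9me3 in a replicate list, 0.847% to 4.51% Trim28 and 1.18% to 3.66% Uhrf1. At these shares few peaks would fall on groups of 11, 13 or 44 genes, so their small counts are near the background. None of the 13 annotated non-clustered protocadherin genes had an H3K9me3 or Trim28 peak at its start in a replicate list, and at most 1 had a Uhrf1 peak. The 44 other genes within 500 kb of the clusters had no H3K9me3 peak at a start and at most 3 starts with Trim28. H3K9me3 lay at 0.792% to 5.28% of the 379 Zfp starts, 0% to 1.17% of the 257 Vmn1r starts and 1.11% to 3.33% of the 180 Vmn2r starts. Of the 11 genes for known regulators of the clusters or their marks, Rad21, a cohesin subunit, had a start peak of Uhrf1 and Setdb1 of H3K9me3, each in 1 of 18 lists. The other 9 had none in the replicate lists, among them Ctcf, Smchd1, Dnmt3b and Trim28, and nothing particular to these genes can be read from that.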

How the data were processed

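WT, TKO_L and DKO_0 samples were grouped by their labels. Per the study's methods, alignment was to mm9 (BWA mem), duplicates were dropped (GATK), and the authors' peaks came from MACS2, per replicate and, in TKO_L and DKO_0, again on merged reads with input. The deposited lists give each peak a fold enrichment, a ratio to the local background, with its -log10 p-value and q-value. The deposited hairpin bisulfite counts at repeat amplicons were not used. The reference matched the lists in chromosome names, and no peak ended beyond a chromosome.

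A gene start was called where a peak overlapped 1 kb either side of its outermost start by 1 base or more. Replicate lists were compared by exact sign-flip or permutation tests (two-sided). Overlaps were tested on simulated data and against bedtools 2.31.1. Analyses used Python 3.11.15, NumPy 2.4.6 and pandas 2.3.3. The genes named are those with a start peak in both replicates of a line, which none had, the C-type genes and the ends of the clusters. Others, with the peak sites, were chosen after their values were seen. Members and gene lists were chosen with earlier results of these data known. Sequences of this chromosome are not reported here. Depth is unknown.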

Additional observations from a re-analysis of the deposited data

How the results depend on the processing

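At the starts, the count stayed at 0 of 25 in the 18 replicate lists with 500 bp, with 50% of the window covered, with peaks of -log10 q of at least 5, with the same number of peaks in each list and, for the 24 protein-coding members, against protein-coding genes only. With 50% of the window covered, at most 0.206% of all genes were called in a replicate list, and with that q at most 0.391%. A count of 0 was thus nearly fixed in advance under these stricter settings. With 5 kb either side, Pcdhb6 had a Trim28 peak in WT replicate 1 and Pcdhb14 a Uhrf1 peak in the pooled DKO_0 list. This was 4% of the members in each, against 7.06% and 15.6% of all genes in these lists. With all transcript starts, Trim28 was -1.59 percentage points from all genes (exact sign-flip p = 0.156). Leaving out a list gave -2.22 to -1.65 for H3K9me3, -2.08 to -1.35 for Trim28 and -2.49 to -1.99 for Uhrf1, where p cannot go below 0.0625 with 5 lists. The covered share of the clusters, DKO_0 minus TKO_L, ranged from -0.0977 to 0.594 percentage points for H3K9me3, from -0.231 to 0.0499 for Trim28 and from -0.130 to 0.0401 for Uhrf1 when a list was left out, so no direction was stable. With the same number of peaks per list the Trim28 difference became 0.0277 and that of Uhrf1 0.0152. On the log2 scale relative to the genome, an alternative chosen after seeing the data, it was -0.0297 for H3K9me3, 0.254 for Trim28 and -0.0794 for Uhrf1. The cause was not tested. With the replicate block the differences were 0 at the starts and 0.248, -0.0904 and -0.0447 in the covered share (exact sign-flip p of 0.5, 1 and 0.5). The labels give same-numbered samples nothing else in common, and 2 pairs cannot show a pairing.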
